A study of Mus musculus with 3 samples.

Results

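The genes described here are the 7 mouse members of Hox paralog groups 3 and 4: *Hoxa3*, *Hoxb3* and *Hoxd3* of group 3, and *Hoxa4*, *Hoxb4*, *Hoxc4* and *Hoxd4* of group 4. They were chosen by name as complete paralog groups, from 39 Hox genes and 32285 genes in the count matrices. Earlier results of these data were known when the genes were chosen. Their transcripts were counted in single cells of whole kidneys taken at E15.5, in 3 droplet libraries with 1 library per group. Enl-WT embryos carried 2 normal copies of *Enl* and were *Enl*+/+ *Wt1* GFPCre/+. Enl-T1 embryos were *Enl* flox-T1/+ *Wt1* GFPCre/+, in which Cre turns on a copy of *Enl* with the T1 insertion in the YEATS domain while the other copy stays normal. The third group, labelled Enl-T1 TDI-11055 and called treated Enl-T1 below, had the same genotype and came from mothers given 100 mg/kg of TDI-11055 by mouth once a day from E10.5 to E14.5, where E counts embryonic days. The other groups were labelled as having had no treatment. All groups, the control included, carried the GFPCre knock-in, which inactivates 1 copy of *Wt1*, and Cre came from the *Wt1* promoter. *Wt1* is active in the nephron lineage and in part of the stroma, and is not an active gene of the ureteric epithelium. Kidneys of more than 1 embryo went into the Enl-WT and the Enl-T1 library, and the number of embryos behind the treated library was not stated. Cells were not tied to embryos, and the embryos of a group cannot be told apart.

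Hox genes encode homeodomain transcription factors that give cells their position along the body axis. They lie in 4 clusters, and the order of the genes in a cluster matches the order in which they are switched on, with groups 3 and 4 near the early, anterior end. Hox proteins bind DNA together with PBX and MEIS cofactors, retinoic acid is a classical inducer of the anterior genes, and Polycomb and Trithorax proteins keep them off and on. *Hoxa3* is needed for the thymus and parathyroid, *Hoxd3* for the first neck vertebra, *Hoxb4* is best known from blood stem cells, and *Hoxd4* is a textbook target of retinoic acid in the hindbrain. ENL, the protein of the *Mllt1* gene, reads acylated histones, and TDI-11055 blocks the pocket with which it does so. In the metanephric kidney the best known Hox genes are those of the Hox11 group, which nephron progenitors need.

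The members are spread over all 4 clusters. On GRCm38, the build called mm10 in the submitters' notes, GENCODE M21 places *Hoxd3* on chromosome 2 from 74711927 to 74748442 and *Hoxd4* on the same strand from 74711929 to 74729160, upstream of the RefSeq start used below. *Hoxa3* lies on the reverse strand of chromosome 6 from 52169062 to 52213336, and the span of *Hoxa4* (52189671 to 52191753) lies inside it. *Hoxb4* runs from 96318267 to 96321638 on chromosome 11, just before *Hoxb3* (96323326 to 96347930), and *Hoxc4* from 103018934 to 103036852 on chromosome 15. All are protein-coding genes. A read that falls on exons of more than 1 gene of the same strand is not counted. *Hoxd3* and *Hoxd4* share exonic bases, 9.26% of those of *Hoxd3* and 13.2% of those of *Hoxd4*, so part of their reads could have been lost. The other 5 members share no exonic base with a gene of the same strand in the matrices, and the last 500 bases of each member, where a 3′ assay reads most, were free of such overlap. *Hoxb3os* overlaps 2250 exonic bases of *Hoxb3* on the opposite strand, and the assay keeps the strand.

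RefSeq promoter windows were at hand for 5 of the 7 members, those of *Hoxa3*, *Hoxd3*, *Hoxb4*, *Hoxc4* and *Hoxd4*. They are shown for genes that contrast below: *Hoxd3* and *Hoxd4*, which were higher in Enl-T1 nephron progenitors and lower again after TDI-11055, and *Hoxb4*, which had the ratio of Enl-T1 to Enl-WT closest to 1 there. Each stretch ends where the first annotated exon starts or at the RefSeq start (build GRCm38.p6), and is written on the strand of the gene. The *Hoxd3* stretch is chr2:74711743-74711926, that of *Hoxd4* is chr2:74721728-74721977 and that of *Hoxb4* is chr11:96318017-96318266. Capitals mark matches on either strand to CCAAT (the CCAAT box) and AGGTCA (the hexamer that retinoic acid receptors bind).
Hoxd3: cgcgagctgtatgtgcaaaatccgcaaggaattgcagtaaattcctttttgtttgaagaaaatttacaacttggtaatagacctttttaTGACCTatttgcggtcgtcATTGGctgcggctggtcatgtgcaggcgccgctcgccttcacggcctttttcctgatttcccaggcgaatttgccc
Hoxd4: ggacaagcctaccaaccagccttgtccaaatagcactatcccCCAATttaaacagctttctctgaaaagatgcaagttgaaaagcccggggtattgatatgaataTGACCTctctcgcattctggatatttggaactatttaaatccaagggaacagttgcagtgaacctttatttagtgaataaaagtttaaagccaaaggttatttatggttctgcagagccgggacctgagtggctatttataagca
Hoxb4: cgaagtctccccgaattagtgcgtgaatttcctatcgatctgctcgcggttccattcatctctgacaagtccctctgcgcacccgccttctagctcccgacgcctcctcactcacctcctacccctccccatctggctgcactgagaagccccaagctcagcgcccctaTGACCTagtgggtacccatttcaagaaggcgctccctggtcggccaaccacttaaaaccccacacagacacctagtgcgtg
AGGTCA, read on the other strand as the letters TGACCT, stood 161 bases before the RefSeq start of *Hoxd3*, 145 before that of *Hoxd4*, 81 before that of *Hoxb4* and 146 before that of *Hoxc4*. Within the 250 bases before the start, 4 of the 5 members held it, and 14.02% of 32851 promoter windows of the same length did. CCAAT was present once each in the windows of *Hoxd3* and *Hoxd4*, and in 33.8% of all windows. Neither CACGTG (6.02% of all windows) nor TGATNNAT (a Hox-PBX site, 7.68%) occurred in these 5 windows. These are matches of letters and not measured binding sites, and *Hoxb4* held the hexamer as well as *Hoxd3* and *Hoxd4*. The windows of *Hoxa3* and *Hoxc4* lie wholly inside exons of GENCODE M21 and are not printed.

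The matrices held 37221435, 63336586 and 76619303 UMIs (unique molecular identifiers, 1 per captured transcript) in the libraries of Enl-WT, Enl-T1 and treated Enl-T1. After the study's filter of 1000 to 6000 genes and at most 10% mitochondrial UMIs, 5233, 4144 and 2754 barcodes were left, which was 72.8%, 63.0% and 42.7% of those deposited. Median depth was 5090, 9391 and 16931.5 UMIs a cell, and the median share of ribosomal protein UMIs was 16.5% in Enl-WT against 26.8% and 27.8% in the others. Cells called female from sex-linked transcripts made up 26.5%, 73.3% and 35.1%. Pairs of libraries shared 5 to 8 barcodes among the kept cells. Every value below is a sum of UMIs over the cells of a class, as CPM, the UMI count divided by all UMIs of that class and scaled to 1000000, given with a 95% interval in brackets that covers counting error only. With 1 library per group no difference between groups could be tested, and no interval covers embryos or preparations. Levels of different genes are not compared with each other, since the counts are not per length.

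Cells were clustered without the Hox genes and named from marker lists. NP1-like cells, named from markers of self-renewing nephron progenitors, numbered 842, 768 and 741 in Enl-WT, Enl-T1 and treated Enl-T1. *Foxd1* stroma-like cells, the progenitor side of the stroma, numbered 368, 395 and 166. Ureteric epithelium, the tree that becomes the collecting ducts, numbered 1743, 1173 and 1021, and endothelial-like cells 394, 257 and 116. The summed level of the 11 NP1 markers in NP1-like cells was 1664 CPM in Enl-WT, 711 in untreated and 1254 in treated Enl-T1. None of them was at 0 in any library. The 9 markers of NP2, the committed progenitors, summed to 507, 686 and 526 CPM in the same cells. The NP1-like clusters were led by different genes. Cluster 0 was led by *Rspo3* and *Cited1* and cluster 1 by *Hbb-y* and *Hba-x*. Cluster 2 was led by *Rrm2* and *Ccne2* and cluster 4 by *Ube2c* and *Nusap1*. The part of these marker and cluster differences in the values below was not tested. *Mllt1* itself was at 29.5 CPM in Enl-WT and 21.1 in Enl-T1 NP1-like cells, where the count cannot separate the mutant from the normal copy. *Wt1* was at 169, 115 and 67.2 CPM in the same cells of the 3 libraries.

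In the Enl-WT kidney the 7 genes fell into contrasting patterns over cell types. *Hoxa3*, *Hoxa4* and *Hoxc4* were detected in stromal and nephron cells and were next to absent from the ureteric tree. *Hoxa3* and *Hoxa4* were also present in endothelial-like cells, at 11.1 CPM [7.58 to 15.6] and 6.92 [4.23 to 10.7], and the latter overlaps the level in NP1-like cells. *Hoxb3*, *Hoxb4*, *Hoxd3* and *Hoxd4* were at their highest in distal tubule or ureteric epithelium and were lower in *Foxd1* stroma-like cells. *Hoxa3* was at 26.6 CPM [19.8 to 35.1] in *Foxd1* stroma-like cells and at 18.3 [14.6 to 22.6] in NP1-like cells. In ureteric epithelium it was at 2.23 [1.45 to 3.30], from 25 UMIs in 1743 cells, which is below the 7.53 CPM [3.61 to 13.8] found in Enl-WT barcodes with fewer than 1000 genes. The part of RNA free in the droplets in a level that low was not tested. *Hoxa4* showed the same arrangement, with 7.99 CPM [4.47 to 13.2] in *Foxd1* stroma-like cells, 5.95 [3.95 to 8.60] in NP1-like cells and 0.894 [0.429 to 1.64] in ureteric epithelium. *Hoxc4* was at 27.7 CPM [20.7 to 36.3] in *Foxd1* stroma-like and 32.7 [27.7 to 38.3] in NP1-like cells, against 1.34 [0.750 to 2.21] in ureteric epithelium and 1.04 [0.214 to 3.04] in endothelial-like cells.

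Within the nephron *Hoxc4* was high in NP1-like and podocyte-like cells and lower in NP2-like cells, the committed progenitors, and in tubules. NP2-like cells had 9.63 CPM [4.81 to 17.2]. Podocyte-like cells, the filter cells of the glomerulus, had 27.0 CPM [19.7 to 36.1], distal tubule/loop of Henle-like cells 8.46 [5.79 to 11.9] and proximal tubule-like cells 1.83 [0.498 to 4.68]. The Hoxb genes were instead lowest in podocyte-like cells among the nephron classes. *Hoxb4* was highest in distal tubule/loop of Henle-like cells at 308 CPM [291 to 327], then 197 [185 to 210] in ureteric tip-like, 184 [166 to 202] in proximal tubule-like, 177 [165 to 190] in ureteric trunk-like and 155 [144 to 167] in NP1-like cells. Ureteric tip-like and proximal tubule-like cells did not differ beyond counting error. It was at 37.2 [28.5 to 47.7] in podocyte-like and 51.1 [41.4 to 62.4] in *Foxd1* stroma-like cells. *Hoxb3* also led in distal tubule/loop of Henle-like cells at 202 CPM [188 to 217], followed by ureteric trunk-like and ureteric tip-like cells at 160 and 159, whose intervals overlap, and by NP1-like cells at 118 [108 to 128]. Among classes with at least 50 cells its lowest values were 27.0 in podocyte-like and 21.8 in medullary stroma-like cells.

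*Hoxd3* was a gene of the ureteric tree in Enl-WT. It was higher away from the tips of that tree, going from 35.7 CPM [30.8 to 41.3] in tip-like cells, where branching takes place, to 64.6 [57.5 to 72.4] in trunk-like and 70.1 [56.6 to 85.7] in urothelium-like cells, and the last pair did not differ beyond counting error. NP1-like cells had 15.7 CPM [12.3 to 19.7] and *Foxd1* stroma-like cells 4.79 [2.19 to 9.10] from 9 UMIs. *Hoxd4* was flat along the tree, with 91.4 CPM [83.4 to 100] in tip-like, 84.7 [76.5 to 93.4] in trunk-like and 82.0 [67.4 to 98.8] in urothelium-like cells. It was at 72.0 [63.7 to 81.0] in distal tubule/loop of Henle-like cells, 50.3 [44.1 to 57.2] in NP1-like, 18.4 [11.4 to 28.1] in NP2-like and 14.9 [9.91 to 21.5] in *Foxd1* stroma-like cells.

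**Figure D1:**
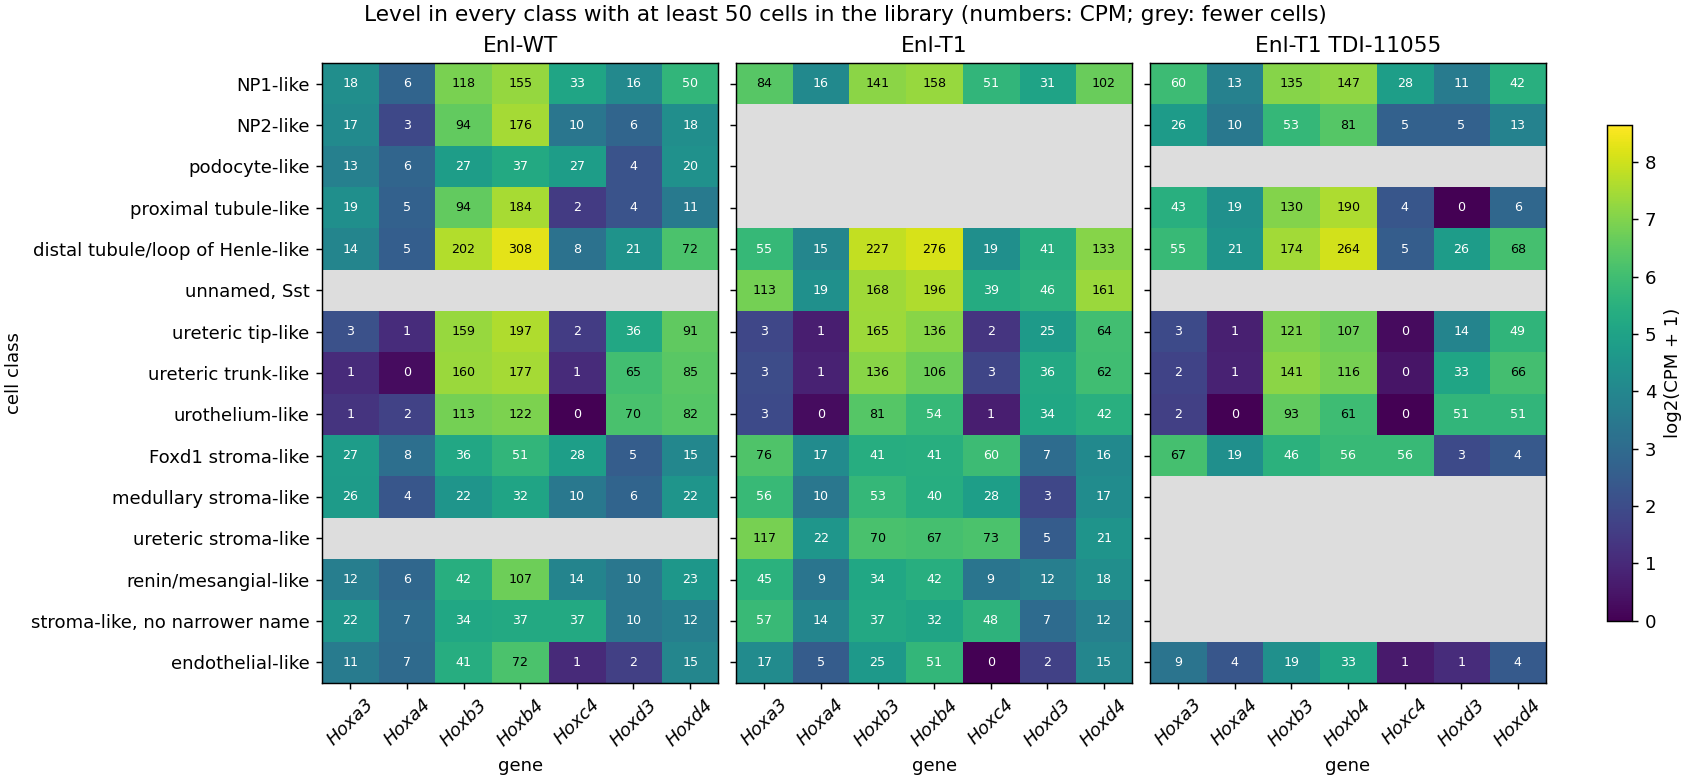
Level of each member in every cell class with at least 50 cells, 1 panel per library; colour is log2(CPM + 1), the numbers are CPM and grey marks classes with fewer cells. Hoxa3, Hoxa4 and Hoxc4 are near 0 in the ureteric tip, ureteric trunk and urothelium classes in all 3 libraries, while Hoxb3 and Hoxb4 reach 202 and 308 CPM in distal tubule/loop of Henle-like cells of Enl-WT.

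Over the 34 combinations of class and library with at least 50 cells, the genes most like a member were mostly its neighbours in the same cluster. Likeness was Pearson's r of log2(CPM + 10) over these combinations, among 11015 genes, and is a description, since classes of a library share its depth. For *Hoxa3* the 3 closest genes were *Hoxa5* (r = 0.959), *Hoxa4* (0.946) and *Hoxa6* (0.945), and for *Hoxa4* they were *Hoxa5* (0.958), *Hoxa3* and *Hoxa6* (0.918). *Hoxc4* was closest to *Hoxc6* (0.956), *Hoxc8* (0.945) and *Hoxc10* (0.928). *Hoxd3* and *Hoxd4* were each other's closest gene (0.897), followed by *Tle2* (0.882) and *Slc16a7* (0.862) for *Hoxd3* and by *Slc16a7* (0.852) and *Patz1* (0.817) for *Hoxd4*. *Tle2* encodes a corepressor of the Groucho family, and *Slc16a7* a monocarboxylate transporter. *Hoxb3* was closest to *Hoxb6* (0.948), *Hoxb5* (0.915) and *Bcl7a* (0.909), and *Hoxb4* to *Hoxb3* (0.897), *Hoxb5* (0.861) and *Mettl17* (0.859). Between genes of the same paralog group in different clusters r went from -0.35 (*Hoxa3* and *Hoxd3*) to 0.72 (*Hoxa4* and *Hoxc4*). It was -0.11 between *Hoxa3* and *Hoxb3*, 0.69 between *Hoxb3* and *Hoxd3*, 0.02 between *Hoxa4* and *Hoxb4* and 0.65 between *Hoxb4* and *Hoxd4*.

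The comparison of Enl-T1 with Enl-WT asked what the mutation does to these genes in each cell type. A gene counted as higher or lower when its ratio lay at least 1.5-fold from the ratio of the median gene, among genes with a mean of at least 5 CPM over the libraries. In NP1-like cells 6 of the 7 members were higher and none was lower, where 13.8% of the 9821 genes tested were higher and 13.5% lower. The members' median log2 ratio was 1.32 relative to the median gene. The median gene itself was at -0.34, so on plain CPM 5 of the 7 members were 1.5-fold higher, beside 6.099% of all genes higher and 32.1% lower. *Hoxb3* is the member that plain CPM leaves out. The median ribosomal protein gene was at 0.61 in log2 in the same comparison, and its part was not tested.

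*Hoxa3* was the member with the largest ratio. It stood at 18.3 CPM in Enl-WT, 83.7 [78.0 to 89.8] in untreated and 59.6 [55.3 to 64.0] in treated Enl-T1 NP1-like cells, so that both Enl-T1 libraries lay far above the control. The Enl-T1 to Enl-WT ratio was 4.58 [3.66 to 5.80], and within each of the 4 NP1-like clusters it was between 3.78 and 7.60. Its neighbour *Hoxa4* was at 5.95, 16.2 [13.7 to 19.0] and 13.1 [11.1 to 15.2] CPM, a ratio of 2.72 [1.81 to 4.23]. Within the 4 clusters the *Hoxa4* ratio went from 1.59 to 5.69. Its intervals included 1 in clusters 1 (2.20 [0.924 to 6.38]) and 2 (1.59 [0.782 to 3.58]). After thinning each cell to 2000 UMIs, 3.97% [2.75 to 5.53] of Enl-WT, 14.9% [12.4 to 17.6] of untreated and 12.2% [9.91 to 14.8] of treated Enl-T1 NP1-like cells had a *Hoxa3* UMI. In ureteric epithelium, which served as the class with next to no *Hoxa3*, the shares were 0.408%, 0.428% and 0.396%, from 7, 5 and 4 cells with a UMI. In endothelial-like cells the shares were 2.60% [1.26 to 4.74], 5.06% [2.72 to 8.49] and 1.72% [0.209 to 6.09], with intervals that overlap. Without thinning they were 9.38%, 54.0% and 47.9% in NP1-like cells, whose median depth was 5087.5, 11344.5 and 18529 UMIs, and 1.38%, 2.30% and 3.82% in ureteric epithelium at 5227, 11709 and 19318. Thinning left out 10, 2 and 2 NP1-like and 28, 5 and 11 ureteric cells.

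The Hoxd pair was about 2-fold higher in Enl-T1. *Hoxd4* was at 50.3 CPM in Enl-WT, 102 [95.5 to 109] in untreated and 42.3 [38.8 to 46.2] in treated Enl-T1, and its ratio of Enl-T1 to Enl-WT was 2.02 [1.75 to 2.34]. *Hoxd3* followed the same course at 15.7, 31.1 [27.6 to 34.9] and 11.2 [9.39 to 13.2] CPM, with a ratio of 1.98 [1.53 to 2.59]. In both genes Enl-T1 stands alone as the high library. *Hoxc4* was at 32.7, 51.1 [46.7 to 55.9] and 27.7 [24.9 to 30.9] CPM, a ratio of 1.56 [1.30 to 1.89]. These ratios varied between clusters. Within the 4 NP1-like clusters they went from 1.38 to 3.07 for *Hoxd3*, from 1.41 to 3.02 for *Hoxd4* and from 1.16 to 2.01 for *Hoxc4*. The intervals of *Hoxd3* included 1 in clusters 0 (1.44 [0.896 to 2.36]) and 1 (1.38 [0.844 to 2.34]), as did that of *Hoxc4* in cluster 1 (1.16 [0.777 to 1.79]). Cluster 0 held 348 Enl-WT and 180 Enl-T1 cells. Among thinned NP1-like cells a *Hoxd4* UMI was present in 9.74% [7.81 to 11.96], 21.0% [18.2 to 24.1] and 6.90% [5.18 to 8.97], and 23.5%, 60.3% and 40.9% without thinning.

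The Hoxb pair differed little. *Hoxb4* was at 155, 158 [150 to 167] and 147 [141 to 154] CPM, with an Enl-T1 to Enl-WT ratio of 1.02 [0.935 to 1.12] and a log2 ratio of 0.37 relative to the median gene. *Hoxb3* was at 118, 141 [134 to 149] and 135 [129 to 142] CPM, a ratio of 1.20 [1.09 to 1.33]. Relative to the median gene this was 0.60 in log2, just past the line, so *Hoxb3* is the one call that rests on the scaling. The libraries differ in their share of female cells, so values were also taken by sex. In male cells alone, *Hoxa3* was at 18.9, 97.6 and 64.9 CPM and *Hoxd3* at 17.2, 37.8 and 12.6, and in female cells alone *Hoxa3* was at 17.7, 81.1 and 60.3 and *Hoxd3* at 11.8, 30.4 and 10.8. The order of the libraries was the same in both sexes for these genes. *Hoxc4* was at 30.5 [23.8 to 38.4], 51.9 [41.8 to 63.7] and 30.3 CPM in male cells alone. In female cells it was at 42.1 [31.3 to 55.5], 51.2 [45.9 to 56.9] and 28.0 CPM, so that the intervals of Enl-WT and Enl-T1 overlapped there. *Hoxb3* was higher in Enl-T1 in male cells alone, at 110 [97.3 to 125], 154 [136 to 173] and 153 [143 to 164] CPM, and not in female cells, at 139 [119 to 162], 139 [130 to 148] and 134 [124 to 145].

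**Figure D2:**
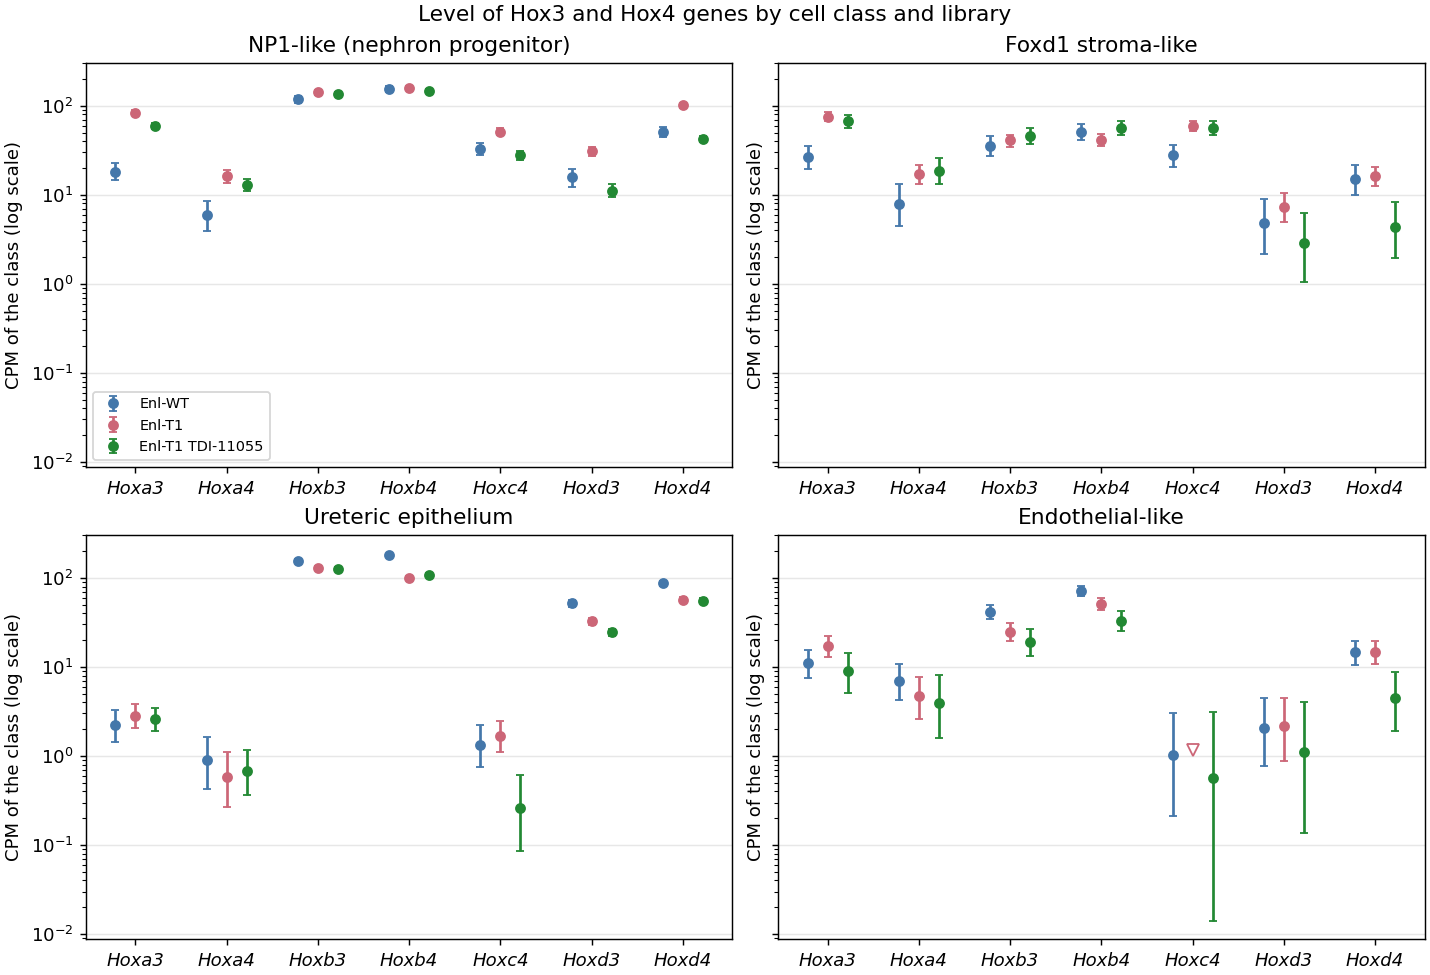
CPM of the 7 members (log axis) in 4 cell classes, 1 point per library with its 95% Poisson interval; an open triangle marks the upper limit where no UMI was seen. In NP1-like cells Hoxa3 and Hoxa4 stay up with TDI-11055 (Enl-T1 TDI-11055) while Hoxc4, Hoxd3 and Hoxd4 are high in Enl-T1 alone.

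TDI-11055 treatment of Enl-T1 embryos was compared with untreated Enl-T1 to ask which of these levels move when the reader pocket is blocked; both comparisons use the Enl-T1 library and are not independent. In NP1-like cells 3 of 7 members were lower and none was higher, where 7.67% of genes tested were lower and 5.99% higher and the median gene was at 0.01 in log2. *Hoxd3* fell to a ratio of 0.360 [0.291 to 0.442], *Hoxd4* to 0.416 [0.373 to 0.463] and *Hoxc4* to 0.543 [0.471 to 0.625]. Their levels in treated Enl-T1 were then close to or below those of Enl-WT, and the intervals of the 2 groups overlap for each of these 3 genes. *Hoxa3* did not pass the 1.5-fold line, with a ratio of 0.711 [0.642 to 0.788], and its level stayed above that of Enl-WT with no overlap of the intervals. *Hoxa4* was at 0.807 [0.642 to 1.01], *Hoxb4* at 0.931 [0.868 to 0.997] and *Hoxb3* at 0.954 [0.887 to 1.03]. Within the 4 NP1-like clusters the ratio was between 0.312 and 0.399 for *Hoxd3*, 0.331 and 0.602 for *Hoxd4*, 0.473 and 0.551 for *Hoxc4* and 0.497 and 0.767 for *Hoxa3*. It was between 0.652 and 1.02 for *Hoxb4* and between 0.699 and 0.996 for *Hoxb3*. Both had their lowest ratio in cluster 4, at 0.652 [0.550 to 0.772] and 0.699 [0.587 to 0.832], with intervals below 1.

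**Figure D3:**
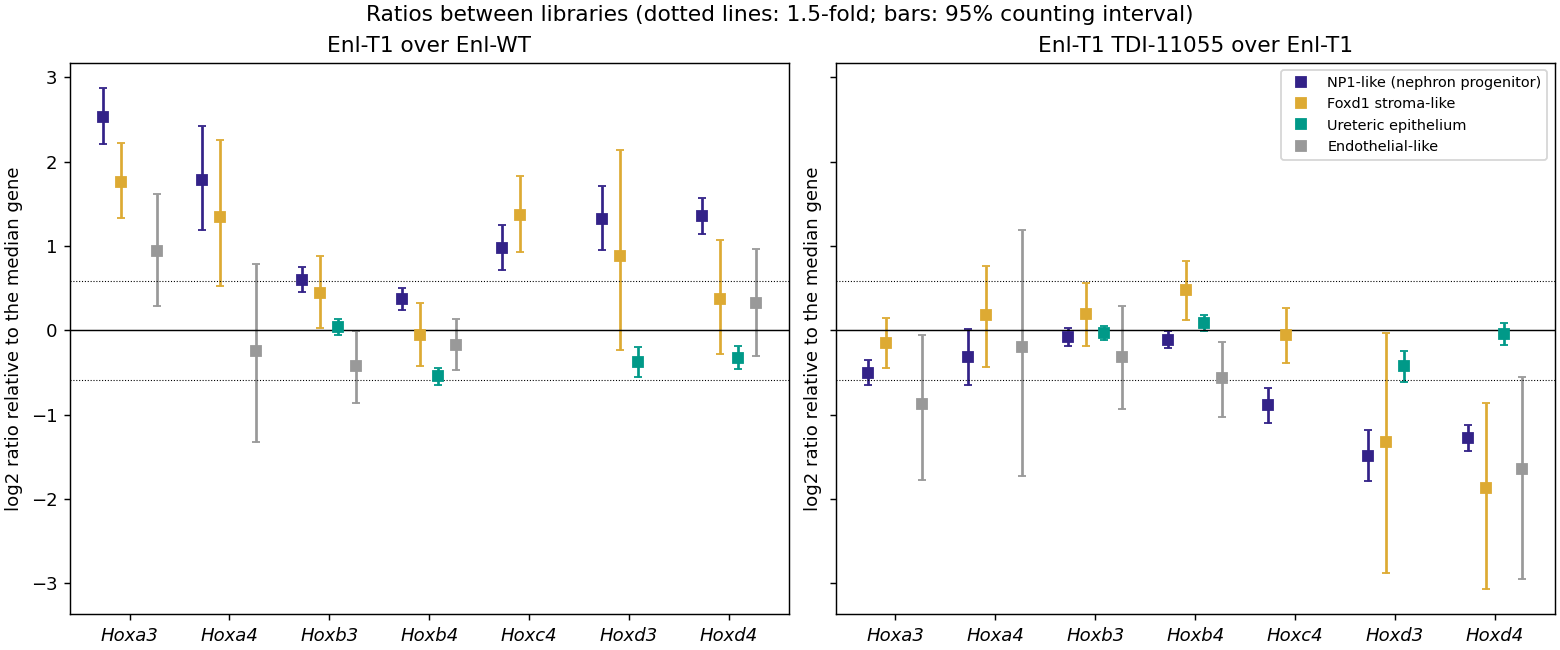
Log2 ratio of each tested member relative to the median gene of the class, for Enl-T1 over Enl-WT (left) and for Enl-T1 with against without TDI-11055 (right), with 95% counting intervals and dotted lines at 1.5-fold. On the left NP1-like Hoxa3 stands at 2.53 and ureteric Hoxb4 at -0.55; on the right NP1-like Hoxd3 is at -1.48 and Hoxb3 at -0.08.

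The members can be placed among all Hox genes of the NP1-like cells. The median log2 ratio of Enl-T1 over Enl-WT relative to the median gene was 1.32 for the 7 genes of groups 3 and 4, 1.44 for 3 tested genes of groups 1 and 2, 1.00 for 8 genes of groups 5 to 7, 1.30 for 7 of groups 8 and 9 and 1.11 for 6 of groups 10 and 11. The 1 tested gene of groups 12 and 13, *Hoxd12*, was at 3.04. Under TDI-11055 the medians were 1.00, -0.50, -0.22, -0.91 and -0.78 in the same order from groups 1 and 2 to groups 10 and 11, and -1.45 for *Hoxd12*. Under TDI-11055 the genes past the line were arranged by cluster. All 7 tested Hoxc genes and all 7 tested Hoxd genes were lower by at least 1.5-fold, *Hoxc4*, *Hoxd3* and *Hoxd4* among them. None of 9 tested Hoxa and none of 9 tested Hoxb genes was lower, and 2 Hoxb genes (*Hoxb1* and *Hoxb2*) were higher. This split by cluster was seen after the values were known and was not tested. Relative to Enl-WT, Enl-T1 was higher in 9 of 9 Hoxa, 6 of 9 Hoxb, 6 of 7 Hoxc and 7 of 7 Hoxd genes. Of all genes 13.8% were higher in that comparison, and under TDI-11055 7.67% were lower and 5.99% higher.

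**Figure D4:**
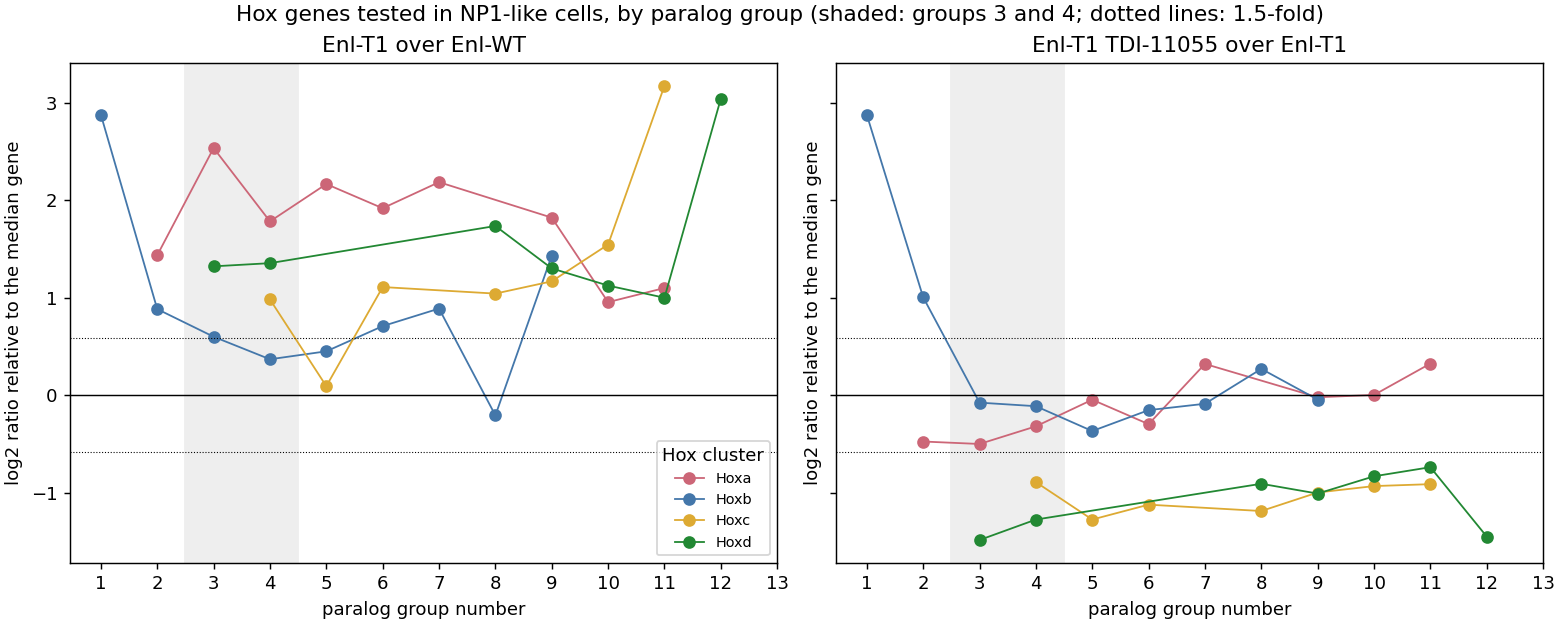
Log2 ratio relative to the median gene for each Hox gene tested in NP1-like cells, by paralog group number and with 1 line per cluster; grey shading marks groups 3 and 4 and dotted lines 1.5-fold. Under TDI-11055 (right) every Hoxc and Hoxd point lies below the lower line, while Hoxa and Hoxb points from group 3 on lie between the lines.

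In *Foxd1* stroma-like cells 4 of 7 members were higher in Enl-T1 and none was lower, where 15.2% of 10117 genes were higher and 13.3% lower, and the median gene was at -0.25. On plain CPM 4 members were also higher, beside 8.22% of genes higher and 26.7% lower. *Hoxa3* was at 26.6 CPM in Enl-WT, 75.8 [67.5 to 84.7] in untreated and 66.8 [56.2 to 78.9] in treated Enl-T1, and *Hoxa4* at 7.99, 17.0 [13.2 to 21.5] and 18.8 [13.3 to 25.6]. *Hoxc4* was at 27.7, 59.8 [52.5 to 67.8] and 56.3 [46.5 to 67.4] CPM. For these 3 genes both Enl-T1 libraries were high. The ratios of Enl-T1 to Enl-WT were 2.85 [2.11 to 3.92] for *Hoxa3*, 2.12 for *Hoxa4* (in log2 relative to the median gene 1.34 [0.52 to 2.25]) and 2.16 [1.59 to 2.97] for *Hoxc4*. The last of the 4, *Hoxd3*, was counted on 9 UMIs in Enl-WT and 30 in Enl-T1, with a ratio of 1.54 [0.713 to 3.69], and its log2 ratio relative to the median gene turned from 0.88 to -0.13 when cells were filtered more strictly. At 4.79, 7.38 and 2.88 CPM in the 3 libraries it met the mean of 5 CPM only through Enl-T1, where it was highest. Its place in this count depends on that library. *Hoxb3* (1.14 [0.857 to 1.54]), *Hoxd4* (1.09 [0.690 to 1.76]) and *Hoxb4* (0.808 [0.625 to 1.05]) had intervals that include 1.

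The other stromal classes were smaller, and their values are given side by side without a call. Medullary stroma-like cells, from the inner kidney, numbered 142, 359 and 29 in the same order of libraries, and *Hoxa3* was at 25.8 CPM [13.7 to 44.1], 56.0 [46.9 to 66.5] and 98.5 [68.6 to 137]. Renin/mesangial-like cells, which lie at the glomerulus and its vessels, numbered 179, 92 and 23 and had 11.9 [5.92 to 21.2], 44.8 [31.0 to 62.5] and 38.4 [21.5 to 63.3] CPM of *Hoxa3*. Both classes thus had *Hoxa3* levels in untreated and treated Enl-T1 above the Enl-WT interval. *Hoxb4* in renin/mesangial-like cells was lower in both than in Enl-WT, at 107 [86.8 to 130], 42.1 [28.8 to 59.5] and 74.2 [49.7 to 107] CPM, and the intervals of Enl-WT and treated Enl-T1 overlap. Ureteric stroma-like cells, which surround the ureter, numbered 46, 233 and 10, and in Enl-T1 they had the highest *Hoxa3* (117 CPM [102 to 135]), *Hoxa4* (22.3 [15.8 to 30.6]) and *Hoxc4* (72.8 [60.6 to 86.8]) of the stromal classes, with intervals for *Hoxa4* and *Hoxc4* that overlap those of *Foxd1* stroma-like cells. Their Enl-WT values of *Hoxa3* and *Hoxc4* were each 27.1 CPM [8.78 to 63.1] from 5 UMIs. Stroma-like cells with no narrower name (114, 311 and 41) had 22.04 [10.08 to 41.8], 56.7 [46.9 to 67.9] and 75.0 [53.3 to 103] CPM of *Hoxa3*. Within the clusters of *Foxd1* stroma-like cells the Enl-T1 to Enl-WT ratio lay between 2.77 and 2.97 for *Hoxa3* and between 2.03 and 2.45 for *Hoxc4*, and between 0.773 and 3.06 for *Hoxa4*.

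Under TDI-11055 *Hoxc4* was not past the line in the stroma. Its ratio in *Foxd1* stroma-like cells was 0.941 [0.748 to 1.18], against 0.543 in NP1-like cells, and these intervals do not overlap. It varied between the stromal clusters from 0.588 [0.312 to 1.04] in cluster 5, close to the value of NP1-like cells, to 1.15 [0.816 to 1.60] in cluster 0. In the stroma 2 of 7 members were lower and none higher, where 16.3% of genes were lower and 12.5% higher. *Hoxd4* was at 16.2 CPM [12.6 to 20.7] without and 4.33 [1.98 to 8.21] with treatment, a ratio of 0.267 [0.117 to 0.537], and *Hoxd3* at 7.38 [4.98 to 10.53] and 2.88 [1.06 to 6.28], the latter on 6 UMIs. Barcodes with fewer than 1000 genes in the same libraries held more of both, with *Hoxd4* at 48.8 and 11.9 CPM and *Hoxd3* at 31.3 and 5.32. The part of RNA free in the droplets in the stromal values was not tested. *Hoxd3* met the mean of 5 CPM only through untreated Enl-T1, where it was highest, so its place in this count depends on that library. *Hoxa3* (0.882 [0.717 to 1.08]) and *Hoxa4* (1.10 [0.726 to 1.66]) had intervals that include 1. *Hoxb4* had a ratio of 1.36 [1.07 to 1.73], under the 1.5-fold line relative to the median gene. In the same cells the 5 *Foxd1* stroma markers summed to 1499, 682 and 1187 CPM in the 3 libraries and 9 markers of red blood cells to 1724, 1442 and 5209, and the part of either in these values was not tested.

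The ureteric epithelium as a whole, where the *Wt1* promoter is not active, showed no member past the line in either comparison. There 4 members had enough counts. Enl-T1 over Enl-WT had 12.9% of 10459 genes higher and 9.91% lower, with a median gene at -0.30. *Hoxb4* was at 180 CPM [172 to 188] in Enl-WT, 100 [95.2 to 105] in untreated and 107 [103 to 112] in treated Enl-T1, and its log2 ratio of -0.55 relative to the median gene was close to the line. *Hoxd3* was at 51.8 [47.7 to 56.2], 32.5 [29.7 to 35.5] and 24.4 [22.2 to 26.7] CPM, and *Hoxd4* at 87.5 [82.1 to 93.2], 56.8 [53.1 to 60.7] and 55.7 [52.4 to 59.2]. Both thus had a lower value in Enl-T1 than in Enl-WT, the opposite of NP1-like cells. On plain CPM 3 of the 4 tested members were at least 1.5-fold lower, beside 26.9% of all genes, with 5.72% higher. *Hoxb3* was at 154 [147 to 161], 129 [123 to 134] and 127 [122 to 132] CPM. *Hoxa3* remained at 2.23, 2.84 and 2.58 CPM in the 3 libraries, and *Hoxa4* and *Hoxc4* remained under 2 CPM. Under TDI-11055 7.30% of genes were higher and 10.3% lower. Taken apart, the tree did hold members past the line. In urothelium-like cells (220, 325 and 83) the comparison of Enl-T1 with Enl-WT had 3 of 4 tested members lower, beside 14.0% of 10303 genes. *Hoxb4* had a ratio of 0.444 [0.363 to 0.544] there, *Hoxd3* 0.490 [0.377 to 0.640] and *Hoxd4* 0.518 [0.408 to 0.661]. In ureteric tip-like cells (789, 333 and 474) 1 of 4, *Hoxd3*, was lower under TDI-11055 at 0.556 [0.432 to 0.717], where 8.04% of 10185 genes were. Over the whole ureteric epithelium the summed level of 8 urothelium markers was 118, 567 and 47.5 CPM in the 3 libraries. The part of that mixture in the ureteric values was not tested. The ratios under TDI-11055 were 0.751 [0.661 to 0.854] for *Hoxd3*, 0.981 [0.896 to 1.07] for *Hoxd4*, 0.988 [0.931 to 1.05] for *Hoxb3* and 1.07 [1.00 to 1.15] for *Hoxb4*.

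Endothelial-like cells, which also lie outside the nephron lineage, had 5 members with enough counts. *Hoxa3* alone was higher in Enl-T1 (1 of 5, where 13.4% of 9894 genes were higher and 11.5% lower), at 11.1 CPM [7.58 to 15.6] against 17.2 [12.96 to 22.4] and a ratio of 1.55 [0.987 to 2.48] that includes 1. *Hoxb3* was at 41.2 [34.1 to 49.3] and 24.7 [19.6 to 30.8], and *Hoxb4* at 71.7 [62.2 to 82.1] and 51.3 [43.7 to 59.8]. On plain CPM 1 member was higher and 1 (*Hoxb3*) lower by 1.5-fold, beside 5.89% and 29.0% of genes. Under TDI-11055 2 of 5 were lower, where 16.0% of genes were lower and 11.7% higher, and on plain CPM 3 of 5 were, beside 18.7% of genes. The 2 were *Hoxd4*, from 14.7 CPM [10.8 to 19.5] to 4.47 [1.93 to 8.81] on 8 UMIs, and *Hoxa3*, from 17.2 to 8.95 [5.11 to 14.53]. In barcodes with fewer than 1000 genes *Hoxd4* was at 24.8, 48.8 and 11.9 CPM in the 3 libraries and *Hoxa3* at 7.53, 33.1 and 9.05. Stroma markers summed to 64.0, 130 and 4.47 CPM in endothelial-like cells. The part of RNA free in the droplets in these levels was not tested. The 9 endothelial markers summed to 4778, 4033 and 3813 CPM and those of red blood cells to 2542, 2290 and 415, whose part was not tested. *Hoxc4* had 3, 0 and 1 UMIs in the 3 libraries, and the 0 allows up to 1.15 CPM.

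Along the nephron the course of Enl-T1 progenitors was kept in distal tubule/loop of Henle-like cells (596, 112 and 242 cells). *Hoxa3* was at 14.3 CPM [10.7 to 18.6] in Enl-WT, 54.6 [42.9 to 68.4] in untreated and 55.1 [47.3 to 63.7] in treated Enl-T1, and *Hoxd4* at 72.0, 133 [115 to 154] and 67.8 [59.2 to 77.3]. Thus *Hoxa3* was high in both Enl-T1 libraries, and *Hoxd4* in untreated Enl-T1 only. *Hoxb4* was at 308, 276 [249 to 305] and 264 [246 to 282]. In podocyte-like cells (222, 47 and 29 cells) *Hoxb3* was at 27.0, 196 [153 to 247] and 234 [191 to 285] CPM and *Hoxb4* at 37.2, 238 [190 to 294] and 326 [274 to 385]. The 10 podocyte markers summed to 12263 CPM in Enl-WT, 548 in untreated and 4371 in treated Enl-T1 in the same cells, and the 9 NP2 markers to 383, 1655 and 1533. The part of this marker difference in the Hox values was not tested.

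Genes that act with or on the members were taken from lists of cofactors, the retinoic acid pathway and known regulators. In NP1-like cells, where 13.8% of all genes were higher in Enl-T1 and 13.5% lower, the lists did as follows. Of 8 tested cofactor genes of the PBX, MEIS and PKNOX families, none was higher and 1 (*Pbx4*) lower in Enl-T1, with a median of -0.15 relative to the median gene. *Meis1* was at 116, 85.2 and 51.8 CPM over the 3 libraries and passed the line under TDI-11055, where *Pbx4* was the 1 higher gene of the list. Of 11 tested genes of the retinoic acid pathway, 3 were higher and 1 lower. The higher ones were *Crabp1*, which binds retinoic acid in the cytoplasm, at 5.31 against 56.6 CPM, *Dhrs3*, a retinaldehyde reductase that retinoic acid induces, at 7.22 against 22.9, and *Rdh10*, which makes retinaldehyde, at 90.5 against 140. *Aldh1a2*, the main enzyme that makes retinoic acid, had a plain CPM ratio of 0.840 [0.745 to 0.949] in NP1-like cells. The median gene was at -0.34 in log2 there, and relative to it *Aldh1a2* was within the line. It was past the line, lower, in *Foxd1* stroma-like and in endothelial-like cells. The endothelial-like cells had 4 of 10 pathway genes lower and 1 higher, where 11.5% of all genes were lower and 13.4% higher. Under TDI-11055 in NP1-like cells *Crabp1* and *Rdh10* were lower, at 14.8 and 91.6 CPM, which is 2 of 11 lower, and 1 was higher. Of all genes 7.67% were lower there and 5.99% higher.

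Of 11 regulators of groups 3 and 4 tested in NP1-like cells, chiefly Polycomb and Trithorax genes, none was higher in Enl-T1 and 3 were lower, *Kmt2a* and *Kat6a* among them. Of all genes 13.8% were higher and 13.5% lower. *Kmt2a*, a Trithorax-type histone methyltransferase that keeps Hox genes on, was at 247 against 102 CPM, and *Kat6a*, a histone acetyltransferase that Hox genes need, at 119 against 60.3. *Ezh2*, the Polycomb methyltransferase, had a plain CPM ratio of 0.735 [0.689 to 0.784]. It was within the line relative to the median gene, which was at -0.34 in log2. Under TDI-11055 1 of the 11 was higher and none was lower, where 5.99% of all genes were higher and 7.67% lower. In *Foxd1* stroma-like cells and in ureteric epithelium 1 of 12 tested regulators, *Egr2*, was higher in Enl-T1, with 3 and 2 lower. In these classes 15.2% and 12.9% of all genes were higher, and 13.3% and 9.91% lower. Across all genes with a known length (9816 of 9821) in NP1-like cells, the log2 ratio of Enl-T1 over Enl-WT fell with exonic length. Spearman's rho was -0.46 over genes, which are not replicates, and -0.41 for TDI-11055 over untreated Enl-T1. *Kmt2a* and *Kat6a* have long transcripts, and the part of length in their values and in those of the members was not tested.

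Noncoding transcripts from the same loci were counted as well. Of 5 tested in NP1-like cells, 4 were higher in Enl-T1 and none lower, where 13.8% of all genes were higher and 13.5% lower. *Hoxaas3*, antisense in the Hoxa cluster, was at 2.12 CPM in Enl-WT, 20.8 in untreated and 15.9 in treated Enl-T1, so it stayed up as *Hoxa3* did. *Hotairm1*, at the anterior end of that cluster, was at 2.55 and 7.504 CPM in Enl-WT and Enl-T1. *Hoxaas3* and *Hotairm1* were thus below 5 CPM in Enl-WT and met the mean of 5 CPM through the other libraries. *Hoxd3os1*, opposite *Hoxd3* and *Hoxd4*, was at 20.8, 35.9 and 15.3 CPM and passed the line downwards under TDI-11055, as that pair did. *Hoxb5os* was at 32.3 against 164 CPM, although *Hoxb3* and *Hoxb4* beside it differed little. *Hoxb3os* was at 13.4, 14.9 and 26.3 CPM and was the 1 higher transcript of the list under TDI-11055, where 5.99% of all genes were higher and 7.67% lower.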

How the data were processed

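Single-cell RNA libraries (10x 3′ chemistry, 1 per group) were processed by the authors with Cell Ranger 6.1.2 on mm10, according to the submitters' processing notes, and the deposited matrices hold whole-number UMI counts per gene and barcode. Barcodes with 1000 to 6000 genes and at most 10% mitochondrial UMIs were kept. Doublets were scored with Scrublet in scanpy 1.11.5, which marked 125, 45 and 3 barcodes in the libraries of Enl-WT, Enl-T1 and treated Enl-T1. The last was judged not to have worked, and doublets were removed in an alternative only, where the 62 highest scores stood in for that library. Cells were clustered in Seurat 5.3.0 (R 4.3.3; 30 components, resolution 0.5; nephron and stroma again with 20 and 0.8) after 45 Hox and Hox-locus genes and 113 technical genes were left out, and named from 149 markers in 17 lists. The scoring that turned markers into names was set after clusters had been seen, and differences from the study may come from these rebuilt names. Counts were summed over the cells of each class and library and divided by the class total (CPM). Intervals are exact Poisson limits for a level, exact Clopper-Pearson limits for a share, and limits of a binomial split for a ratio of CPM, all at 95% and for counting error only. Genes with a mean of at least 5 CPM over the libraries were tested for a ratio at least 1.5-fold from that of the median gene. With 1 library per group no statistical test was possible. Named genes were all 7 members, list genes past that line and, for likeness, the 3 genes with the highest r per member. The members and lists were chosen with earlier results of these data known. Single values of some list genes are not reported here. Ratio code was tested on simulated data. Alternatives covered cell filters, doublets, Hox genes in the clustering, the low-count filter, scaling, thinning, sex and single clusters. A change of scaling common to all genes of a library cancels against the median gene and could not move a ratio relative to it. Promoter sequences came from RefSeq (GRCm38.p6) and exons from GENCODE M21.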

Additional observations from a re-analysis of the deposited data

Results flagged for a closer look

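In some members the log2 ratio relative to the median gene had opposite signs in different cell classes. These differences between classes were not tested, since there is 1 library per group. For Enl-T1 over Enl-WT, *Hoxd3* was at 1.32 in NP1-like cells and -0.37 in ureteric epithelium, and *Hoxd4* at 1.35 and -0.32. *Hoxb4* was at 0.37 in NP1-like cells and -0.55 in ureteric epithelium, and *Hoxb3* at 0.60 in NP1-like, 0.45 in *Foxd1* stroma-like and -0.43 in endothelial-like cells. For treated over untreated Enl-T1, *Hoxb4* was at 0.48 in *Foxd1* stroma-like, -0.11 in NP1-like and -0.57 in endothelial-like cells.

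Barcodes with fewer than 1000 genes (1558, 1818 and 2951 in the libraries of Enl-WT, Enl-T1 and treated Enl-T1) enter no comparison of the report. All 7 members had a higher value there in Enl-T1 than in Enl-WT, and for 3 of them the 95% intervals did not overlap. *Hoxa3* was at 33.1 CPM in Enl-T1 against 7.53 in Enl-WT and 9.05 in treated Enl-T1. *Hoxc4* was at 21.9 CPM in Enl-T1 against 4.52 in Enl-WT. *Hoxd4* was at 48.8 CPM in Enl-T1 against 24.8 in Enl-WT.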

How the results depend on the processing

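No paired analysis was possible because each group has 1 library, and for the same reason no replicate could be left out. For single members 447 of 528 alternatives moved the log2 ratio by less than its counting interval, 80 moved it further and 1 reversed a value past the 1.5-fold line: *Hoxd3* for Enl-T1 over Enl-WT in *Foxd1* stroma-like cells was at -0.13 with stricter cell filters. Alternatives that only rescaled the libraries could not move these values, since a factor common to all genes cancels against the median gene. They are counted among the 447 and do not bear on the scaling. Among the 28 values within the line, 13 changed sign under at least 1 alternative. Causes were not tested. Counting depth limits *Hoxd3* and *Hoxd4* in stroma and endothelium and *Hoxa4* and *Hoxc4* outside nephron and stroma.

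In NP1-like cells the members' median for Enl-T1 over Enl-WT was 0.89 and 0.86 within clusters 0 and 1, and for TDI-11055 over Enl-T1 it was -0.71 with stricter cells, -0.69 as a mean over cells and -0.90 within cluster 4. In *Foxd1* stroma-like cells, for Enl-T1 over Enl-WT, 1 member was lower with Hox genes kept in the clustering and 1 after thinning, and 2 were higher with a 20 CPM filter. Under TDI-11055 there, 1 was lower with doublets removed, with Hox genes kept, in female cells and as a mean over cells, and 0 with a 20 CPM filter and in male cells. Also there, 2 were higher with Hox genes kept, and 1 each with no filter, after thinning and in male cells.

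In ureteric epithelium, for Enl-T1 over Enl-WT, 2 were higher with no filter and 1 in male cells, 1 was lower in female cells, and the median was -0.19 in male and -0.55 in female cells. Under TDI-11055 1 was lower with no filter and 1 in male cells, and the median was -0.16 after thinning, -0.40 in male and 0.11 in female cells. In endothelial-like cells, for Enl-T1 over Enl-WT, 1 was lower with stricter cells, 1 with no filter and 2 in female cells. There 0 were higher with a 20 CPM filter and in female cells and 2 after thinning and in male cells, with a median of 0.47 after thinning and 0.56 in male cells. Under TDI-11055 the endothelial median was -1.04 with stricter cells, -1.16 after thinning and -1.15 in male cells, 4 were lower with stricter cells and 1 with a 20 CPM filter, and 1 was higher with no filter.

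With no filter the median of Hox groups 1 and 2 in NP1-like cells was 2.31 for Enl-T1 over Enl-WT and 0.30 under TDI-11055, and that of groups 12 and 13 under TDI-11055 was -1.20. With Hox genes kept in the clustering, Enl-T1 *Foxd1* stroma-like cells had 33.2 CPM of *Hoxb3* and 32.4 of *Hoxb4*. With doublets removed, ureteric epithelium had 1.33 CPM of *Hoxa3* in Enl-T1, and 0.472 and 0.534 of *Hoxc4* in Enl-WT and Enl-T1. Without thinning, 9.38%, 54.0% and 47.9% of NP1-like cells had a *Hoxa3* UMI in the 3 libraries, 23.5%, 60.3% and 40.9% had a *Hoxd4* UMI, and 1.38%, 2.30% and 3.82% of ureteric cells had a *Hoxa3* UMI.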

Other observations

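A cluster that met no marker list and was led by *Sst* held 42, 221 and 15 cells in the libraries of Enl-WT, Enl-T1 and treated Enl-T1. In it *Hoxa3* was at 11.4 CPM [2.36 to 33.4], 113 [98.7 to 130] and 81.3 [49.0 to 127], and *Hoxd4* at 22.9 [8.40 to 49.8], 161 [144 to 181] and 55.6 [29.6 to 95.1]. *Hoxb4* was at 64.8, 196 and 197 CPM. The Enl-WT values rest on 3, 6 and 17 UMIs.

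In NP2-like cells, committed progenitors that numbered 155, 48 and 152, *Hoxa3* was at 16.6 CPM [10.0 to 26.0], 69.0 [50.1 to 92.6] and 25.6 [17.6 to 35.9]. Here the level in treated Enl-T1 overlapped that of Enl-WT, which it did not in NP1-like cells. *Hoxb4* was at 176 [152 to 202], 161 [132 to 196] and 80.6 [65.9 to 97.7] CPM, lowest in treated Enl-T1. On plain CPM 6 of 6 tested members were at least 1.5-fold lower under TDI-11055 in NP2-like cells, beside 30.8% of all genes lower and 12.7% higher. Median depth in NP2-like cells was 6647, 13071 and 5100.5 UMIs in the 3 libraries, and its part in these values was not tested. In proximal tubule-like cells (329, 36 and 111) *Hoxd4* was at 10.51 [6.66 to 15.8], 49.2 [30.8 to 74.4] and 6.34 [2.74 to 12.5] CPM.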
